A study of Cynoglossus semilaevis with 24 samples.

Results

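The genes described here are those of the pathway for protein processing in the endoplasmic reticulum (ER) in the Chinese tongue sole, Cynoglossus semilaevis, a flatfish in which females are ZW and males ZZ. They were chosen by the pathway annotation in the deposited gene table. Rows annotated as heat shock proteins or X-box-binding proteins and 1 row chosen by its identifier were left out, and a mean of at least 1 FPKM (fragments scaled by transcript length and by library size, a level per length) was required in any of 8 groups. Of 22773 rows, 202 carried the pathway, 13 were left out and 6 lay under the level, which left 183 members. The members nearest the level were nfe2, with a highest group mean of 1.34 FPKM, and LOC103391456, with 2.45 FPKM. The nearest rows outside it were cryaa, at 0.943 FPKM, and LOC103394997, at 0.517 FPKM.

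The study measured RNA by sequencing in female and male pituitary, liver, brain and gonad (ovary in females, testis in males) of fish aged 2 years. Each of the 8 groups of sex and organ had 3 libraries, and each library was made from a pool of 5 fish, so the spread between single fish was not measured. The labels gave no strain and no treatment, and sex was given as genetic sex. The total of estimated counts ran from 10032337 to 25293744, and without ovary library 1, the deepest, the highest total was 15409531.

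Proteins that will be secreted or placed in a membrane enter the ER through the Sec61 channel, the translocon, with the help of the translocon-associated protein complex. The oligosaccharyltransferase attaches sugar chains as they enter, and luminal chaperones and protein disulfide isomerases fold them. The lectins calnexin and calreticulin hold glycoproteins until a glucosidase releases them, and a folding sensor returns unfolded ones to the lectins. Correctly folded cargo leaves in vesicles coated by COPII, while misfolded proteins are pulled back into the cytosol and degraded by the ubiquitin system (ER-associated degradation). The sensors PERK, ATF6 and IRE1 report a surplus of unfolded protein. Cells that secrete much protein, such as hormone cells of the pituitary, hepatocytes and acinar cells of the pancreas, hold a large rough ER.

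The members were ordered by role: 12 of the translocon, 8 of the oligosaccharyltransferase, 14 luminal chaperones and disulfide enzymes, 25 of glycoprotein folding and lectins, 14 of the COPII coat, 56 of degradation, 36 stress sensors and downstream factors, and 18 others. Of the 183, 179 were found in the RefSeq gene table of assembly Cse_v1.0, which placed 8 on the Z and 4 on the W chromosome.

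Each organ carried its own markers. The summed FPKM of 9 pituitary hormone genes was at least 131198 in the pituitary libraries and at most 203 elsewhere. That of 13 hepatocyte genes was at least 101890 in the livers and at most 4091 elsewhere, in a brain library. All 6 brains held such transcripts, at 3542 to 4091 FPKM in females and 2357 to 2594 in males. The pituitaries had 124 to 454 FPKM in females and 141 to 213 in males. The summed FPKM of 8 brain genes was at least 6007 in the brains and at most 357 elsewhere. For 13 oocyte genes the sum was at least 18568 in the ovaries and at most 143 elsewhere, and for 9 testis genes it was at least 212 in the testes and at most 56.6 elsewhere. Some libraries stood apart. Oocyte genes summed to 97.8 FPKM in female pituitary library 3, to 137 in male pituitary library 3, to 143 in male brain library 1 and to 36.9 in female liver library 1, above the other libraries of their groups. Ovary library 2 held hepatocyte genes at 3290 FPKM and acinar genes at 2844 FPKM, against at most 124 and 101 FPKM in the other ovaries. All 6 livers carried 15 of 15 pancreatic acinar genes, trypsins, chymotrypsins, carboxypeptidases and lipases, at a sum of 52475 to 124895 FPKM, and their part in the liver results was not tested. In bulk samples fewer cells of a type and less RNA per cell cannot be told apart.

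Which organ held the highest levels of the pathway depended on the scaling. FPKM is set by each library's total. On that scale the 183 members summed to between 10215 and 11108 FPKM in the 6 pituitaries, against 6314 to 6859 in the ovaries, 7093 to 7541 in the testes, 5556 to 5899 in the brains and 4225 to 5221 in the livers. The pituitary range did not overlap that of any other organ. The organ with the highest FPKM was the pituitary for 67 members, or 36.6%, against 16.6% of all rows at 1 FPKM or more. It was the gonad for 43.7% of members, against 49.3% of all rows, the brain for 15.8%, against 28.7%, and the liver for 3.83%, against 5.45%. By role, 12 of 14 luminal chaperones and disulfide enzymes, 7 of 8 oligosaccharyltransferase subunits and 7 of 12 translocon members peaked in the pituitary in FPKM, while 39 of 56 degradation members peaked in a gonad. In 38 members each of the 6 pituitary libraries exceeded each of the 18 others, which is 20.8% of members and was 6.29% of all rows at that level.

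TMM scales libraries by the bulk of their genes instead of their total, and in an alternative added after seeing the data the FPKM of each library were divided by its TMM factor. The livers then had the highest sums, 11275 to 14397, against 7397 to 8172 in the pituitaries, 7478 to 7814 in the ovaries, 3751 to 4261 in the testes and 3451 to 3797 in the brains. The liver was then the highest organ for 61 members, or 33.3%, against 18.6% of all rows, and the pituitary for 32, or 17.5%, against 14.4%. Of the luminal chaperones and disulfide enzymes 9 peaked in the liver and 3 in the pituitary, and of the translocon members 11 and 1. Members above all other libraries in each pituitary became 11, or 6.01%, against 5.45% of all rows. The gonad was the highest organ for 39 degradation members on either scale. The pituitaries lay above the brains, and the ovaries above the brains, on both scales, while the ovaries lay below the testes in FPKM and above them with TMM.

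**Figure D1:**
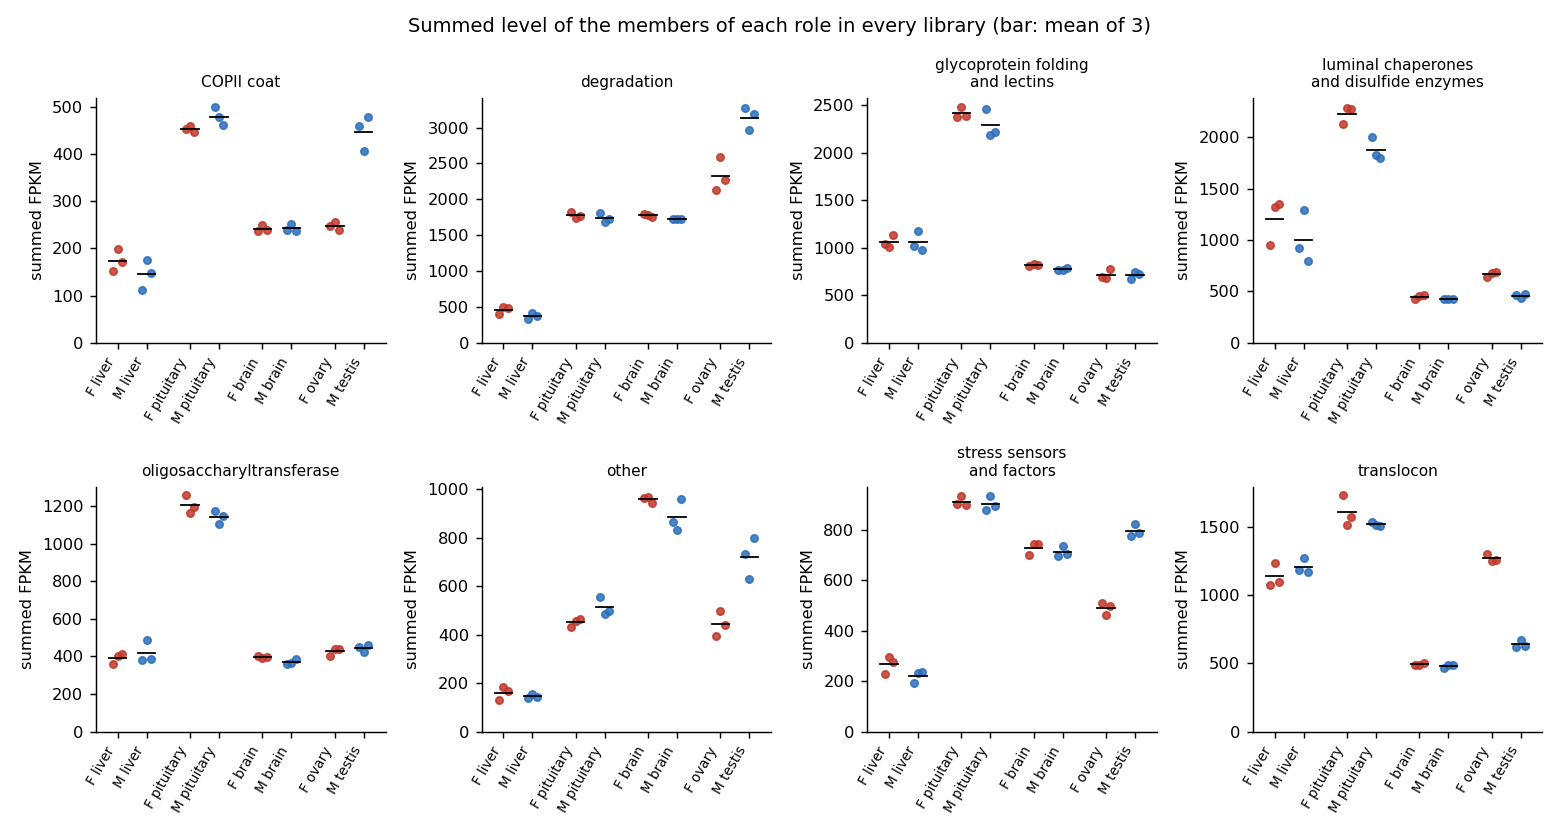
Summed FPKM of the members of each role (vertical axis, from 0) in every library, by group along the horizontal axis, with livers, pituitaries, brains and gonads from left to right and females left of males; points are libraries and bars the mean of 3. In FPKM, luminal chaperones reached 1796 to 2291 in the pituitaries, above all other organs, and degradation members were highest in the testes; with TMM scaling the liver was the highest organ for 9 of the 14 luminal members.

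Pituitary and brain, which adjoin each other, were compared over both sexes. Of 181 members tested, 122 were higher in the pituitary and 30 lower, so 84.0% were called (edgeR quasi-likelihood test, Benjamini-Hochberg adjusted p under 0.05), against 75.6% of all 17366 rows tested. Higher calls were 36.6% and lower calls 38.9% of all rows. The median member was 0.67 higher on the log2 scale, and the median row -0.009. All 14 luminal chaperones and disulfide enzymes, all 8 oligosaccharyltransferase subunits and all 12 translocon members rose, with medians of 2.50, 1.65 and 1.48. With libraries scaled by their count total, 104 members were higher and 39 lower. Higher under both scalings were 104 members, against 28.8% of all rows tested, among them 14, 7 and 11 of these 3 roles. All organ tests treated libraries as independent, although the organs of a sex may come from the same 15 fish. Without the 3 libraries of these organs that held oocyte transcripts, 147 members were called. The shares of all rows called in that fit and with the count total alone are not given here, so these counts are not a result about the members.

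In the folding compartment the chaperone hspa5 (BiP, the main Hsp70 of the ER lumen) had 322, 375 and 482 FPKM as the lowest, median and highest of 6 pituitaries, against 65.5, 80.0 and 92.8 FPKM in 6 brains. The groups did not overlap, and hspa5 was 5.41-fold higher (log2 difference 2.44 ± 0.08, SE; edgeR adjusted p = 1.63e-13). Fold changes come from the fit to counts with TMM scaling, so they can differ from the ratio of mean FPKM, which is set by each library's total. Its partner hyou1, an Hsp110 that acts as exchange factor, had 90.4, 101 and 119 FPKM in the pituitaries, against 15.7, 18.1 and 19.6 in the brains, a difference of 2.73 ± 0.08. The disulfide isomerase p4hb ran from 478 to 886 FPKM in the pituitaries and from 115 to 128 FPKM in the brains, and differed by 2.56 ± 0.06. The co-chaperone dnajc3a, the p58 inhibitor of PERK, showed the largest increase of the members tested: 53.2 to 71.8 FPKM in the pituitaries, against 1.72 to 3.72 FPKM in the brains (26.3-fold, 4.71 ± 0.12, edgeR adjusted p = 5.31e-15). The oxidase ero1b, which recharges the isomerases, was 9.75-fold higher and the isomerase pdia6 7.30-fold higher. The least changed of the 14 were dnajc10, a reductase, at 1.81-fold, and hsp90b1 (endoplasmin, the ER Hsp90), sil1 and dnajc3b at 3.06-, 3.40- and 3.08-fold.

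**Figure D2:**
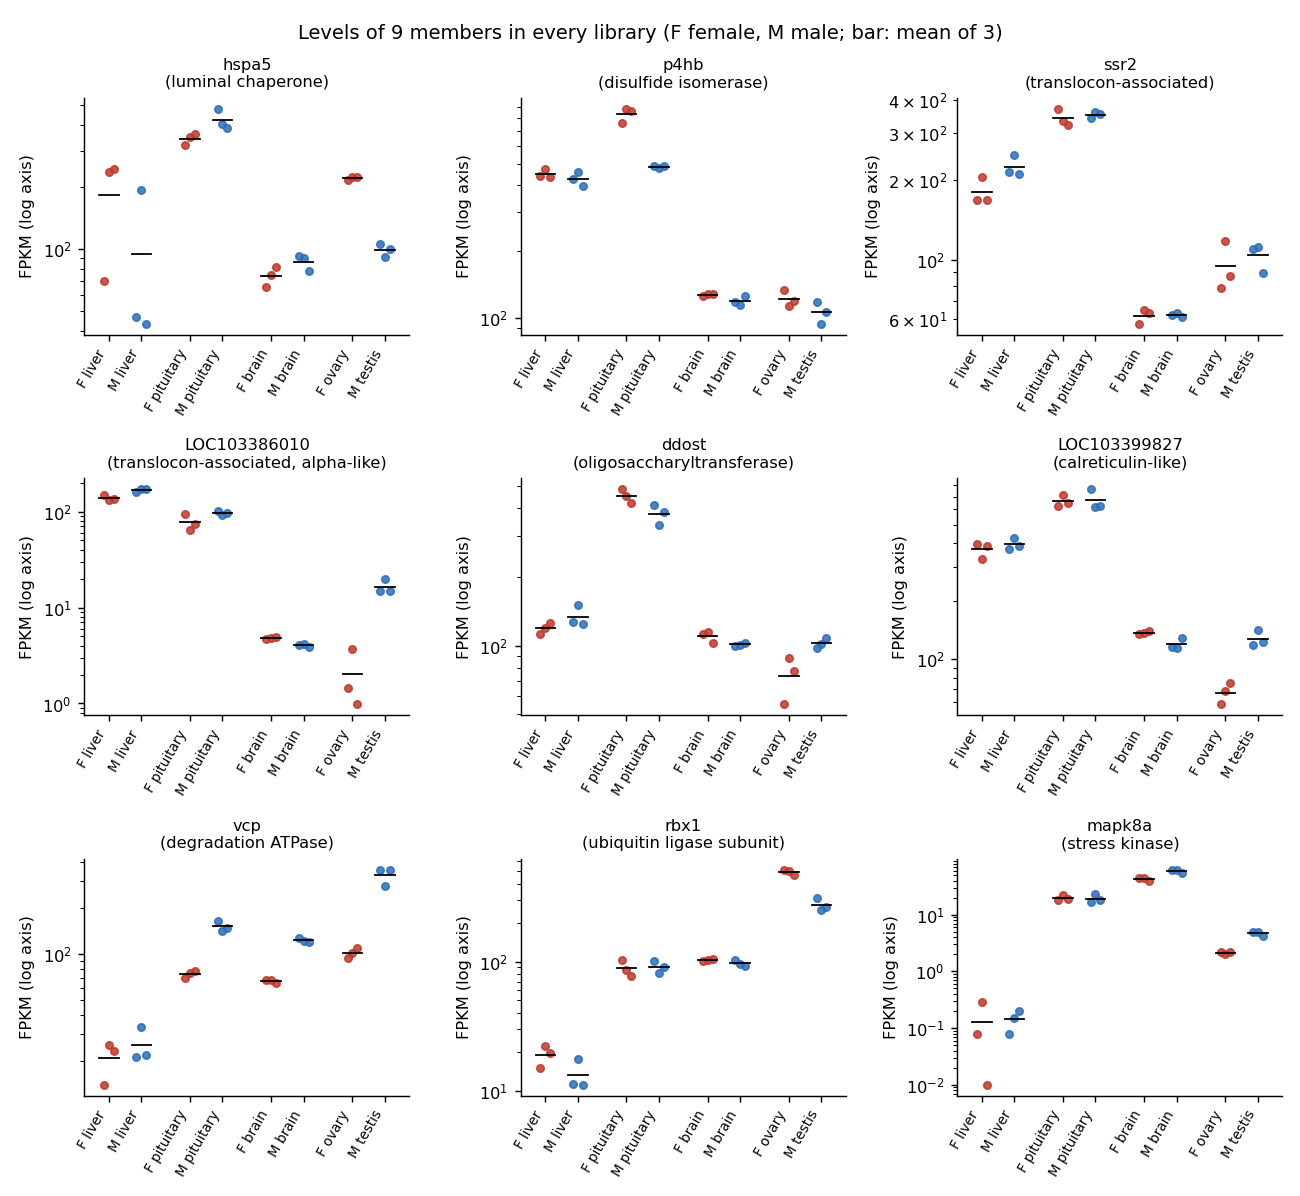
FPKM of 9 members on log axes in every library, by group along the horizontal axis, females in red and left of males in blue; bars are means of 3, and a value of 0 is drawn at 0.01. In FPKM, which is set by each library's total, hspa5, p4hb, ssr2, ddost and the calreticulin-like LOC103399827 were highest in the pituitaries, LOC103386010 in the livers, rbx1 in the ovaries, vcp in the testes and mapk8a in the brains.

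At the entry to the ER the translocon-associated subunit ssr2 had 323, 347 and 371 FPKM in the pituitaries, against 57.7, 62.7 and 64.9 FPKM in the brains (2.67 ± 0.06). The channel subunits sec61a1 and sec61b were 3.09- and 4.80-fold higher, and ssr4 and ssr3 4.78- and 2.35-fold. The alpha subunit was annotated at both ssr1 and LOC103386010. LOC103386010 had 64.3 to 102 FPKM in the pituitaries and 3.90 to 4.99 FPKM in the brains (22.3-fold, 4.48 ± 0.10), while ssr1 had 1.51 to 3.68 FPKM in the pituitaries and 0.71 to 1.39 FPKM in the brains (3.36-fold, 1.75 ± 0.26). Among the oligosaccharyltransferase subunits ddost, rpn1 and rpn2 rose 4.47-, 4.44- and 3.90-fold, and the catalytic subunit stt3a 3.05-fold. tusc3, an accessory subunit, differed by only 0.26 ± 0.08, and its higher call was lost under the count total.

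Among 24 lectins and glycoprotein enzymes tested, 20 were higher and 2 lower, 91.7% called against 75.6% of all rows. Calnexin (canx), the membrane lectin, had 412 to 523 FPKM in the pituitaries and 218 to 229 FPKM in the brains (2.35-fold). The 3 calreticulin-like rows did not move together. LOC103399827 had 616 to 765 FPKM in the pituitaries and 114 to 139 FPKM in the brains (5.94-fold), and calr3b was 5.74-fold higher. The row named calr had 12.8 to 19.1 FPKM in the pituitaries, against 32.9 to 38.6 FPKM in the brains, and fell by 1.05 ± 0.08 on the log2 scale. Similar rows share reads where their sequences match, and how the authors' counting divided such reads is not given in the sources used here. The folding sensor uggt1 was 4.09-fold higher and the cargo lectin lman1 4.44-fold, while the mannosidases edem2, edem3 and edem1, which mark glycoproteins for degradation, were 2.84-, 1.44- and 1.39-fold higher.

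Of 14 COPII members 12 were higher and 1 lower, 92.9% called against 75.6% of all rows. Copies of 1 coat gene again differed. The cargo adaptor sec24d had 55.9 to 73.6 FPKM in the pituitaries and 8.24 to 8.55 FPKM in the brains (8.43-fold, 3.08 ± 0.07), and the outer coat gene sec31a was 6.56-fold higher, while sec31b differed by 0.23 ± 0.06 and overlapped. The GTPase gene sar1b was 1.94-fold higher in the pituitaries, whereas sar1aa had 4.21 to 6.85 FPKM there, against 18.2 to 22.5 FPKM in the brains, and fell by 1.56 ± 0.11.

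Of 56 degradation members, 27 were higher and 10 lower in the pituitaries, 66.1% called against 75.6% of all rows, with a median of 0.25. The ubiquitin ligase synoviolin (syvn1) was 3.41-fold higher, its partner sel1l 2.72-fold, the lectin erlec1 3.36-fold, herpud1 3.40-fold and the channel proteins derl2 and derl1 2.25- and 1.71-fold. The lectin os9 and the ER-bound ligase amfr were 1.47- and 1.34-fold higher, and the ER-bound conjugating enzyme ube2j1 was not called (0.10 ± 0.11). Among the 10 lower members were the cytosolic fbxo2, an F-box protein that binds sugar chains, and the shuttle protein ubqln1. fbxo2 had 10.3 to 13.0 FPKM in the pituitaries and 87.3 to 108 FPKM in the brains and fell by 2.85 ± 0.08. ubqln1 fell by 2.66 ± 0.11. Cytosolic members were not counted as a set.

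Of 36 sensors and downstream factors, 35 were tested, 21 were higher and 8 lower, 82.9% called against 75.6% of all rows. The sensors atf6 (3.50-fold), eif2ak3 (PERK, 2.02-fold) and the IRE1-like ern2 (2.10-fold) rose, as did atf4a, a transcription factor translated when PERK is active (182 to 251 FPKM in the pituitaries, against 104 to 122 FPKM in the brains). The JNK genes mapk9, mapk8a and mapk10 fell, by 2.60 ± 0.10, 1.18 ± 0.09 and 0.27 ± 0.07. The calpain-2-like protease LOC103387544 had 4.72 to 15.8 FPKM in the pituitaries and 0.35 to 0.95 FPKM in the brains (3.97 ± 0.17). Among the remaining members ckap4, a sheet protein of the rough ER, was 13.9-fold higher and the ribosome receptor rrbp1a 5.38-fold, while the small chaperone cryab had 0.13 to 0.75 FPKM in the pituitaries and 201 to 287 FPKM in the brains. cryab passed the level of 1 FPKM only through the brains, so its higher level there followed from how the members were chosen. stm, annotated as dentin sialophosphoprotein-like, had 0.43 to 1.27 FPKM in the pituitaries and 149 to 270 FPKM in the brains.

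**Figure D3:**
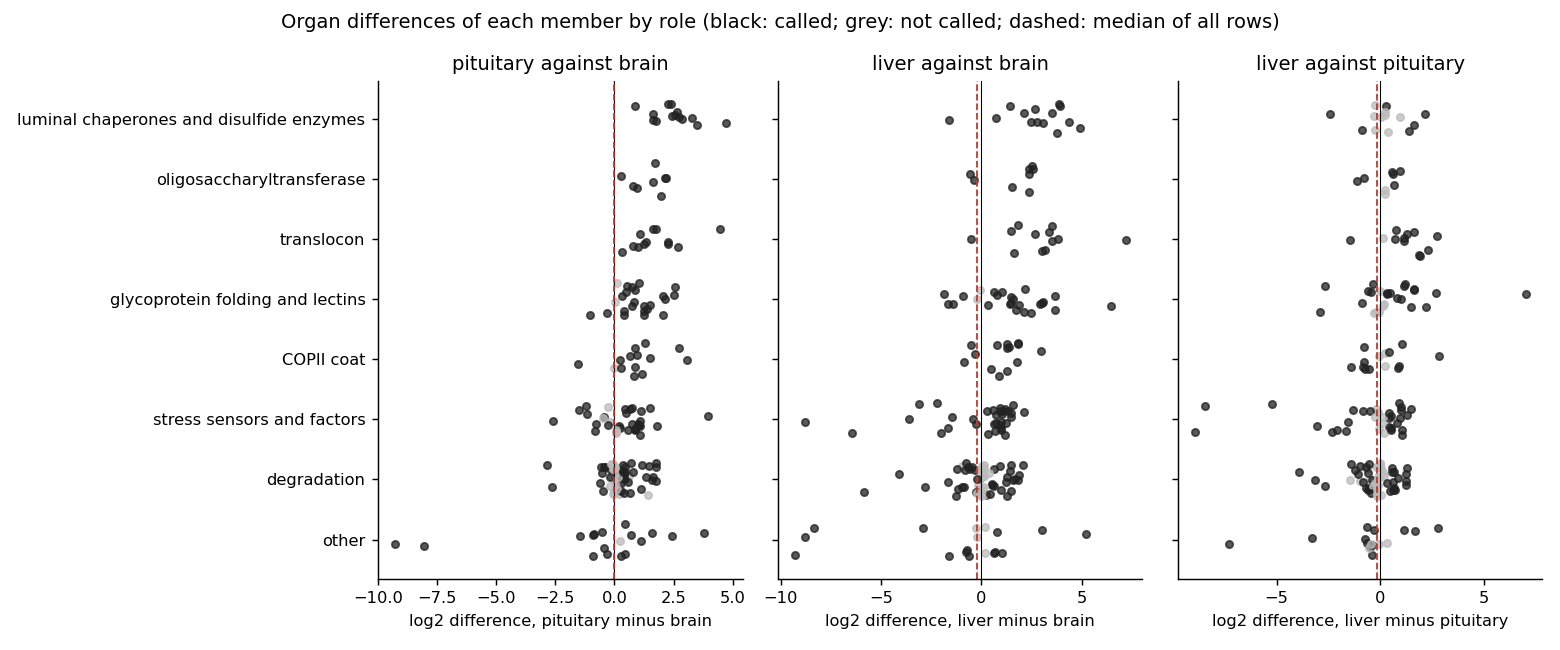
log2 difference of each member tested (horizontal axis) by role (vertical axis) for pituitary minus brain, liver minus brain and liver minus pituitary; black points were called by edgeR, grey points were not, and the dashed line is the median of all rows tested. Luminal chaperones, oligosaccharyltransferase and translocon members all lie right of 0 in the pituitary, and most do in the liver under TMM scaling.

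The liver was set against the brain and the pituitary, and here the scaling decided the direction of many members. Of 180 members tested against brain, 108 were higher in the liver and 46 lower with TMM, 85.6% called against 80.4% of all rows (34.8% higher and 45.6% lower), and the higher calls were 70.1% of the calls. Scaled by the count total, 31 were higher and 138 lower, so 18.3% of the calls were higher. The median of all rows stood at -2.28, against -0.20 with TMM. Relative to that median the members lay 0.92 higher with TMM and 0.94 higher with the count total. A scaling shifts all rows nearly alike, so these 2 values had to lie close and do not check each other. Called alike under both scalings were 31 members higher and 46 lower, against 8.81% and 45.6% of all rows, and 67 members were called in opposite directions, against 21.4% of all rows. The 31 comprised 8 luminal chaperones and disulfide enzymes, 8 translocon members, 7 of glycoprotein folding, 5 oligosaccharyltransferase subunits, 1 COPII member and 2 others. No degradation member and no stress factor was among them.

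The largest of these differences was that of LOC103386010, the alpha-like translocon-associated subunit, with 132, 154 and 171 FPKM as the lowest, median and highest of 6 livers, against 3.90, 4.41 and 4.99 FPKM in the brains. The groups lay far apart, and the log2 difference was 7.20 ± 0.11 with TMM and 5.10 with the count total. rrbp1a, which binds ribosomes to the ER, had 58.7 to 82.9 FPKM in the livers and 7.24 to 9.16 FPKM in the brains (5.21 ± 0.10 with TMM, 3.11 with the count total). p4hb had 397 to 472 FPKM in the livers and 115 to 128 FPKM in the brains, a difference of 3.93 ± 0.10 with TMM and 1.83 with the count total. hsp90b1 (153 to 327 FPKM in the livers, 71.8 to 84.1 in the brains), ssr2, sec61a1, ssr3, pdia4 and dnajc3a also held under both scalings. Calnexin did not follow them: it had 53.3 to 79.3 FPKM in the livers and 218 to 229 FPKM in the brains, was called 0.33 ± 0.09 higher with TMM and 1.76 lower with the count total, so its direction depended on the scaling. The JNK genes mapk10 and mapk8a, cysteine string protein-like LOC103385595 (a synaptic vesicle co-chaperone), cryab, stm and ubqln1 stood at no more than 0.29 FPKM in any liver and fell under both scalings. For cryab, which became a member only through the brains, this direction followed from how the members were chosen.

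Against pituitary, 178 members were tested in the liver, and 68 were higher and 56 lower with TMM (69.7%, against 76.5% of all rows, 34.2% higher and 42.2% lower; 54.8% of the calls higher), whereas 6 were higher and 165 lower with the count total (3.51% higher). Relative to the median of all rows the members lay 0.15 higher with TMM and 0.14 with the count total, values that again had to lie close. With limma on log2(FPKM + 1) they lay at -0.193. Of all rows 9.33% were higher under both scalings. The 6 members among them were LOC103386010, rrbp1a, ssr3, sar1aa, man1b1b and LOC103391456, and these were named after their values were seen. sar1aa had 10.3 to 13.4 FPKM in the livers and 4.21 to 6.85 FPKM in the pituitaries. The calmegin-like LOC103391456 had 1.58, 2.10 and 3.66 FPKM in female and 0.95, 2.54 and 0.51 FPKM in male livers, and at most 0.27 FPKM in any library of another organ. It passed the level of 1 FPKM only through the livers, so its higher level there followed from how the members were chosen. p4hb, 397 to 472 FPKM in the livers and 478 to 886 FPKM in the pituitaries, was called 1.40 ± 0.13 higher with TMM and 0.54 lower with the count total.

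hspa5 split the livers. It had 69.8, 238 and 244 FPKM in the female and 46.6, 194 and 43.2 FPKM in the male livers, so 3 pools were high and 3 low, with both levels in each sex. The sum of the luminal chaperones and disulfide enzymes was highest in those same 3 pools, at 1322, 1352 and 1292 FPKM, against 793 to 954 FPKM in the others. That sum includes hspa5 itself, by which the pools were picked, so it was not independent of the split. The acinar genes summed to 89112, 99819 and 52475 FPKM in the 3 high pools and to 99513 to 124895 in the 3 low ones, and their part in the split was not tested. The liver difference from brain for hspa5 had a wide error (2.76 ± 0.43 with TMM, edgeR adjusted p = 0.000209) and was not called with the count total (0.70). That from pituitary was not called (0.37 ± 0.39, edgeR adjusted p = 0.414).

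Between the sexes, the share of members called lay a little under that of all rows in brain, pituitary and liver. The pathway rows left out by the rule were called more often, 7 of 11 tested in the brain and 8 of 9 in the pituitary. The lower share is therefore not a result about the whole pathway. The p-values measure the spread between pools. In the brain 14 of 176 members were higher and 16 lower in females, 17.0% called against 20.3% of all rows (9.36% higher and 10.9% lower). In the pituitary 25 of 176 were higher and 13 lower, 21.6% against 26.7% (12.4% higher and 14.3% lower). In the liver 4 of 158 were higher and 3 lower, 4.43% against 6.82% (1.88% higher and 4.94% lower). The median size of a sex difference in members was 0.145, 0.213 and 0.206 on the log2 scale in these organs, against 0.202, 0.325 and 0.26 in all rows. Called with a difference of at least 1 were 3 of 176, 7 of 176 and 4 of 158 members. Of all rows these were 542 of 16385, 1167 of 15313 and 449 of 10566. The 3 W members called in each organ were among the members counted. These 3 passed the level of 1 FPKM only through female groups, so their higher level in females followed from how the members were chosen. Scaled by the count total, 18 were higher and 11 lower in the brain, and in the liver 5 were called, each higher in females. The brain count was 17, 14 and 18 without female brain library 1, 2 or 3, of which 5, 3 and 6 were higher. The pituitary count was 20, 18 and 22 without female pituitary library 1, 2 or 3, and 25 without male pituitary library 1. The pituitary split between higher and lower did not hold: it was 10 and 10 without female library 1, 11 and 7 without female library 2, 20 and 22 without male library 3, and 12 and 10 without both libraries with oocyte transcripts. The liver count was 4, 1 and 0 without female liver library 1, 2 or 3, and 4 and 3 without male liver library 1 or 3. Where edgeR called 0, 17 of 153 members had an unadjusted p under 0.05, and DESeq2 called 2. In the edgeR fit with all liver libraries, 2388 of 10566 rows had an unadjusted p under 0.05. Without the libraries that held oocyte transcripts the counts in brain, pituitary and liver were 23, 22 and 4. Shares of all rows called with libraries left out are not given here, so these changes are not a result about the members.

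**Figure D4:**
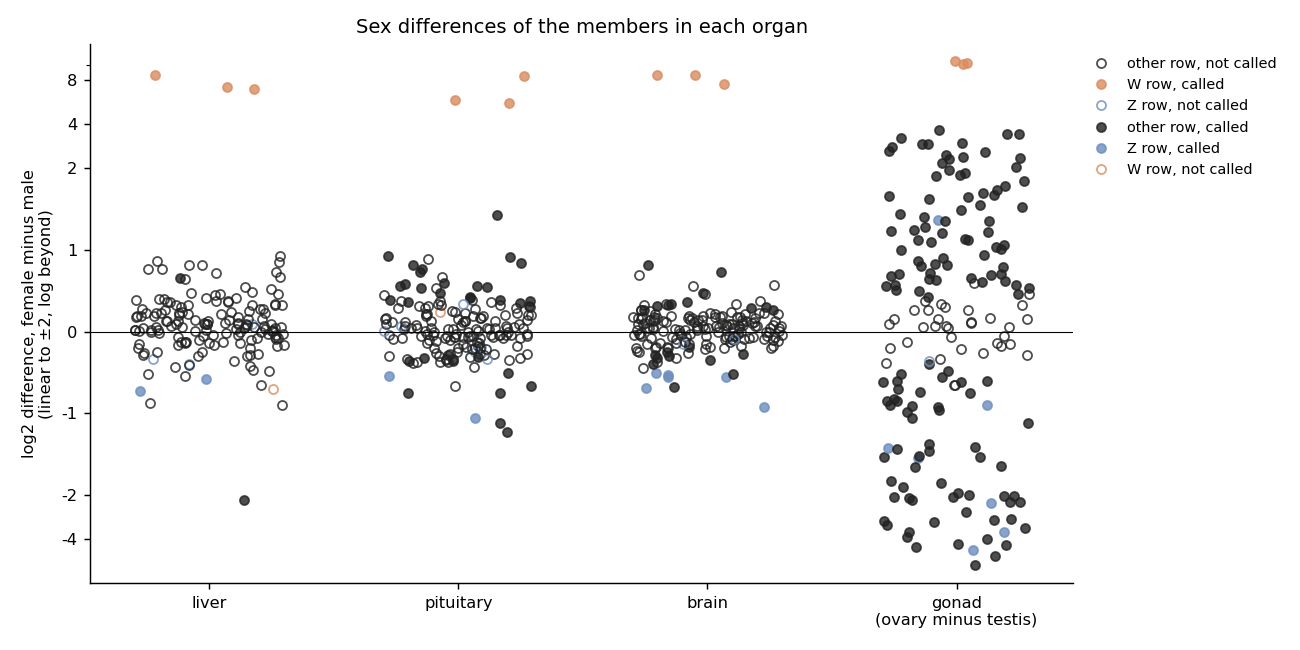
log2 difference, female minus male, of each member tested (vertical axis, linear within ±2 and log beyond) in liver, pituitary, brain and gonad; filled points were called by edgeR, and colours show rows on Z, on W and elsewhere. The W rows lie above 5 wherever called, 6 of 8 Z rows were lower in female brain, and the largest difference of any other row in the 3 somatic organs was -2.16, for dnaja in liver. The called W rows became members only through female groups, so their direction followed from how the members were chosen.

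In the brain 6 of 8 members on Z were lower in females, with a median of -0.54, which was also the median of the 688 other Z rows tested, of which 61.5% were called. Elsewhere in the genome 21 of 162 members were called in the brain, 13.0%, against 17.6% of other rows there. In the pituitary 2 of 8 Z members were called, both lower, against 41.8% of the 648 other Z rows tested. In the liver 2 of 5 were called, both lower, against 22.9% of 463.

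Of the 4 W members, 3 bore the same names as Z members of degradation, and these pairs could be read together. These 3 W rows passed the level of 1 FPKM only through female groups, so their being higher in females followed from how the members were chosen. vcp on Z encodes the ATPase that pulls ubiquitinated proteins out of the ER membrane, and LOC103397105 on W is annotated as the same enzyme. In the brain vcp had 67.7, 68.0 and 64.7 FPKM in females, against 128, 121 and 120 FPKM in males (-0.92 ± 0.07, edgeR adjusted p = 1.18e-07). LOC103397105 had 66.3, 71.6 and 64.3 FPKM in the female brains, against 0.25, 0.14 and 0.1 FPKM in the male brains. The summed level of both rows was 134 ± 5.3 FPKM in females and 123 ± 4.3 FPKM in males. For levels and their sums ± is the SD of 3 libraries, while for log2 differences it is the SE. The female sum was 1.09 times that of males, with all 3 females above all 3 males (exact permutation test, two-sided p = 0.1, the smallest that 3 against 3 allows). With FPKM divided by TMM factors that ratio was 1.01 (exact p = 1). In the pituitary vcp alone had 73.9 ± 3.5 FPKM in females and 151 ± 11.7 in males, and the sum was 139 ± 5.6 and 151 ± 11.7 FPKM (exact p = 0.2). The female sum there was 0.92 times that of males, and 0.907 times with FPKM divided by TMM factors (exact p = 0.1).

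In the gonads the sum of both rows depended on the scaling. It was 167 ± 12.8 FPKM in ovaries and 329 ± 43.4 FPKM in testes (exact p = 0.1), but with FPKM divided by TMM factors it was 193 ± 9.56 in ovaries and 180 ± 29 in testes (exact p = 0.7). vcp alone had 94.5, 101 and 109 FPKM in ovaries, against 355, 278 and 353 FPKM in testes. In the liver the sum was 42.2 ± 9.0 FPKM in females and 25.6 ± 6.9 FPKM in males (exact p = 0.2). The female sum was 1.65 times that of males, and 1.56 times with FPKM divided by TMM factors (exact p = 0.1). In males the W row stood at no more than 0.183% of the vcp level in any organ, and it held 20 estimated counts over the 3 male brains.

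Both other pairs encode ubiquitin-conjugating enzymes. ube2d4 on Z had 22.5, 22.8 and 21.9 FPKM in female and 32.1, 31.1 and 33.1 FPKM in male brains, while LOC103397267 on W had 9.25, 8.42 and 8.08 FPKM in female and 0 FPKM in all 3 male brains. Their sum was 30.99 ± 0.91 FPKM in females and 32.1 ± 1.0 FPKM in males (exact p = 0.3). For the E2 G1-like rows LOC103397438 on Z and LOC103397036 on W the sum was 20.03 ± 2.64 FPKM in female and 15.9 ± 1.0 FPKM in male brains (exact p = 0.1). In the pituitary that sum was 16.9 ± 0.5 FPKM in females and 13.3 ± 1.4 FPKM in males (exact p = 0.1). In the gonads it was 77.9 ± 27.6 FPKM in ovaries and 45.9 ± 8.2 FPKM in testes (exact p = 0.1). Divided by TMM factors, the female sum was 1.17, 1.26 and 3.6 times that of males in brain, pituitary and gonads (exact p = 0.3, 0.1 and 0.1). With 3 against 3 libraries no exact p can go below 0.1. None of the 12 sums tested could therefore pass 0.05 on either scale, before or after adjustment. The 4th W member, the pdia4-like LOC103396872, was not female-limited: it had 6.32, 5.22 and 0.55 FPKM in female and 4.08, 3.64 and 2.37 FPKM in male pituitaries. How the counting treated reads shared by Z and W copies is not given in the sources used here.

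**Figure D5:**
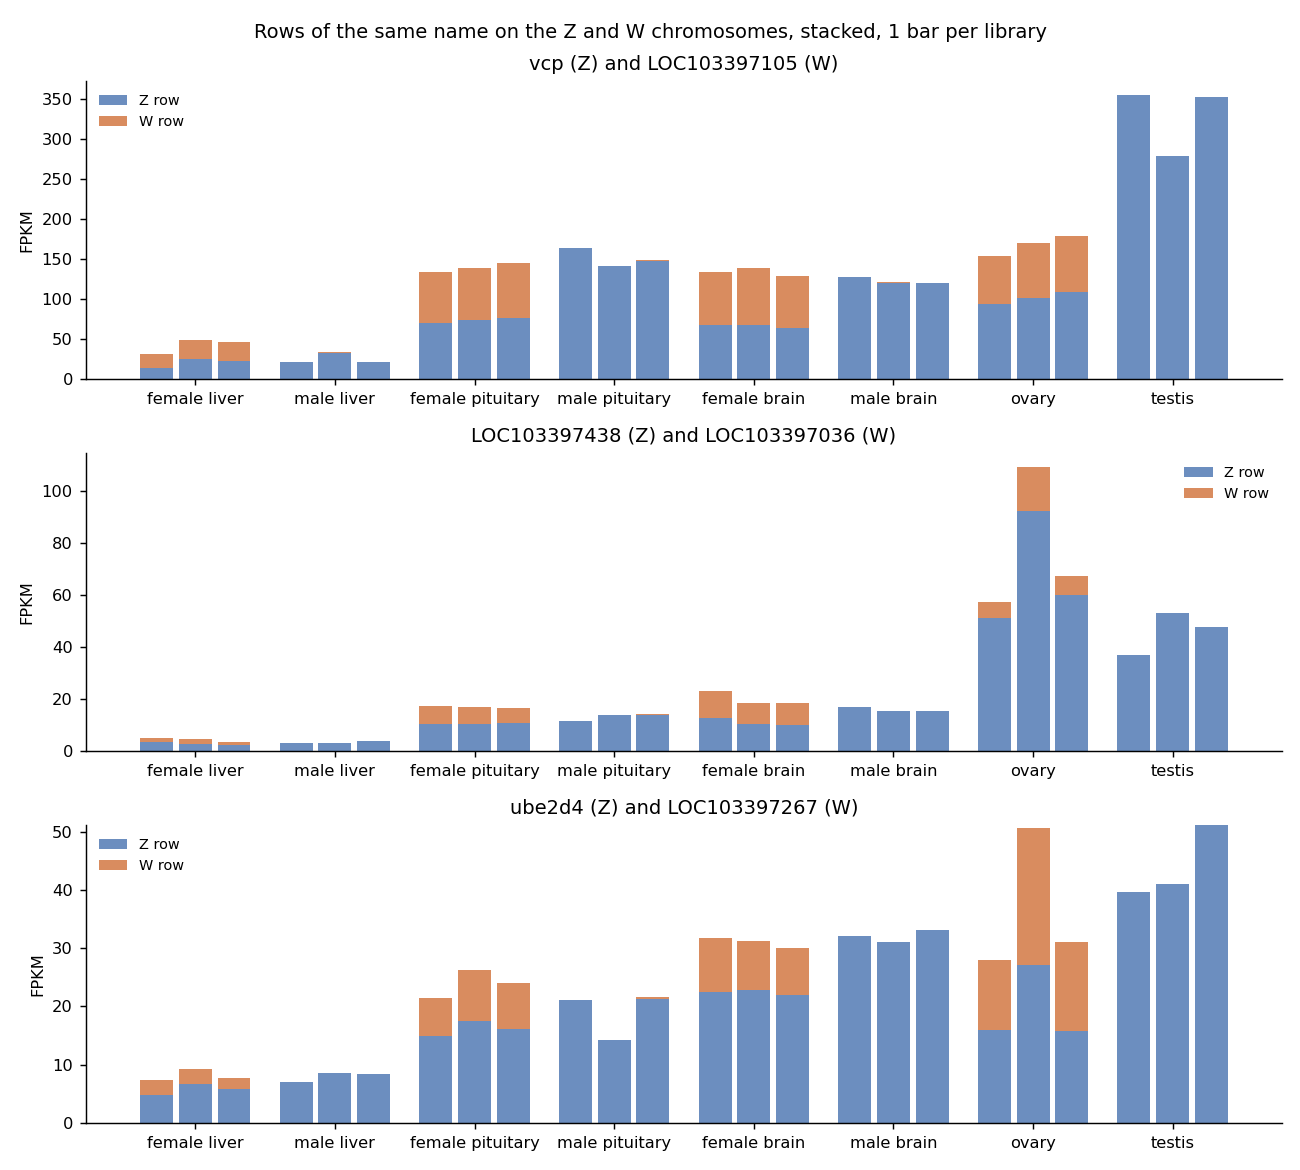
FPKM of the Z row (lower part of each bar) and the W row (upper part) of 3 pairs of like-named members in every library, female groups left of male groups. In brain and pituitary the stacked female bars of vcp reach 129 to 145 FPKM, near the male bars of 120 to 164 FPKM made almost wholly of the Z row; testes reach 279 to 355 FPKM, and with TMM scaling the ovary and testis sums averaged 193 and 180.

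Outside the sex chromosomes 32 of 161 members, 19.9%, were called in the pituitary, against 25.8% of other rows there, and 2 of 146, 1.37%, in the liver, against 5.39%. p4hb had 761, 886 and 861 FPKM in female pituitaries, against 487, 478 and 487 FPKM in male ones. Every female pool exceeded every male pool, and the difference was 0.76 ± 0.10 (1.70-fold, edgeR adjusted p = 0.000324). The calpain-2-like LOC103387544 had 12.7, 14.7 and 15.8 FPKM in females, against 4.72, 6 and 5.09 FPKM in males (1.42 ± 0.15). svip, a small inhibitor of ER-associated degradation that binds VCP, was 1.76-fold higher, the deglycosylating enzyme ngly1 1.90-fold, and the E2 D3-like LOC103381844 1.88-fold, a call lost when any of 5 libraries was left out. The lectin erlec1 was 1.47-fold higher, edem2 1.498-fold and the mannosidase man1c1 1.47-fold. Of 24 glycoprotein folding and lectin members tested in the pituitary, 2 were higher and 1 lower, 12.5% called against 26.7% of all rows.

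Of the 13 members lower in female pituitaries, 4 were of degradation and 3 were stress sensors and factors. In these roles 13 and 3 members were higher, and 30.4% and 18.2% were called, against 26.7% of all rows. nploc4, the cofactor that links VCP to ubiquitin chains, had 40.3, 41.9 and 42.1 FPKM in females and 69.0, 72.4 and 64.0 FPKM in males (-0.75 ± 0.10, edgeR adjusted p = 0.000396). The IRE1-like ern2 had 13.4, 13.7 and 12.8 FPKM in females, against 20.2, 23.8 and 21.8 FPKM in males (-0.75 ± 0.11). The groups of both genes were well apart. The Hsp40 rows LOC103392725, dnaja and dnajb2 fell by 1.23 ± 0.19, 1.12 ± 0.25 and 0.67 ± 0.13. hspa5 was not called in the pituitary (-0.32 ± 0.12, edgeR adjusted p = 0.0588), with 322, 349 and 363 FPKM in females and 482, 407 and 387 FPKM in males. atf4a fell by 0.36 ± 0.10, a call lost without female pituitary library 2 or 3.

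In the brain ero1b had 8.41, 12.1 and 10.6 FPKM in females, against 5.38, 6.11 and 6.64 FPKM in males (0.72 ± 0.16, edgeR adjusted p = 0.00491). It was also higher in female pituitaries, at 87.0, 87.9 and 76.9 FPKM, against 53.8, 52.8 and 72.6 FPKM in males (0.47 ± 0.13, lost when any of 4 libraries was left out). eif2ak2, the kinase PKR, was 1.28-fold and the calpain LOC103383278 1.39-fold higher in female brains. Of the 16 members lower in female brains, 10 lay outside Z. The largest of those differences was that of dnaja, annotated as member 4 of the DnaJ A subfamily, which fell by 0.68 ± 0.16, and the kinase mapk8a fell by 0.52 ± 0.08. dnaja was lower in females in each of the 4 organs: 1.31, 6.14 and 3.15 FPKM in female livers, against 9.66, 18.9 and 15.3 FPKM in male livers, and 20.2, 30.01 and 29.8 FPKM in female pituitaries, against 77.2, 48.5 and 44.8 FPKM in male ones. Its liver call (-2.16 ± 0.46, edgeR adjusted p = 0.0377) was lost when any of 4 libraries was left out and with the count total. The other liver calls outside W were sel1l, higher in females, and the Z rows man1b1b and ube2d4, lower.

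A term for sex by organ over the 3 somatic organs asked whether the sex difference itself varied. It called 8 of 182 members, 4.40%, against 8.83% of all rows. nploc4 was the clearest, with -0.75 in the pituitary, -0.15 in the brain and 0.27 in the liver (edgeR adjusted p = 0.000586). p4hb stood at 0.76 in the pituitary, 0.05 in the brain and -0.03 in the liver (edgeR adjusted p = 0.0203), and ern2 at -0.75, 0.14 and -0.14 (edgeR adjusted p = 0.0149). man1c1 stood at 0.55, -0.20 and -0.09 in the same order (edgeR adjusted p = 0.0260). sel1l, the scaffold of the synoviolin ligase, differed through the liver, at 0.65, against 0.08 in the brain and 0.03 in the pituitary (edgeR adjusted p = 0.0178). It had 22.3, 32.2 and 33.7 FPKM in female and 15.4, 19.9 and 16.6 FPKM in male livers. For LOC103387544 the term gave an adjusted p of 0.00952 in edgeR, with at most 0.03 FPKM in any liver. It fell under the filter in both brain and liver, so its sex difference was tested by itself only in the pituitary (1.42). The count of 8 became 5 without female brain library 2 and 16 without female liver library 1 or male liver library 2.

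Ovary and testis differed in most members, as in most rows. Of 177 tested, 77 were higher in the ovary and 64 lower, 79.7% called against 84.2% of all rows (38.8% higher and 45.4% lower), and 54.6% of the calls were higher. Scaled by the count total, 41 were higher and 97 lower, so 29.7% were higher, with the median of all rows at -1.04 in place of -0.24. Relative to that median the members lay 0.395 higher with TMM and 0.396 higher with the count total, values that again had to lie close. The sign of this difference turned when any testis library was left out. Without testis library 1, 2 or 3 the value was -0.127, -0.122 and -0.121, with 44.1%, 41% and 41.1% of the calls higher and 161, 160 and 161 members tested. The filter of 3 libraries was applied anew each time, so rows at 1 FPKM or more only in testes then dropped out. That change of rows was not tested apart from the change of libraries. The difference was 0.668 with no filter on low values and 0.11 with a filter at 5 FPKM. Under both scalings 41 members were higher and 64 lower, against 26.8% and 45.4% of all rows. Leaving out testis library 3 lowered the count to 112 of 161 tested, and leaving out ovary library 2, the one with liver transcripts, gave 142 of 172. The shares of all rows called in these refits are not given here.

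Higher in the ovary under both scalings were 6 of 13 luminal chaperones and disulfide enzymes (46.2%) and 5 of 11 translocon members (45.5%), against 26.8% of all rows. The 14 of 55 degradation members (25.5%) and 7 of 24 of glycoprotein folding (29.2%) lay near that share. hspa5 had 216, 225 and 224 FPKM in ovaries, against 106, 91.3 and 100 FPKM in testes (1.98 ± 0.14 with TMM, 1.18 with the count total). The channel subunit sec61b had 255, 265 and 257 FPKM in ovaries, against 49.5, 60.4 and 65.5 FPKM in testes (2.95 ± 0.14). The exchange factor sil1 was 10.5-fold and the glucosidase mogs 5.45-fold higher. mbtps2, the site-2 protease that releases ATF6 from the membrane, had 91.9, 77.8 and 84.2 FPKM in ovaries, against 10.8, 12.6 and 11.5 FPKM in testes (12.7-fold, 3.67 ± 0.14), and its ovary mean in FPKM was 7.28 times the next highest group mean. The deubiquitinase yod1 (93.5 ± 12.2 FPKM in ovaries, 21.2 ± 2.7 FPKM in testes; SD, n = 3 each), herpud1 and the pdia3-like LOC103393751 were also higher. p4hb was called 1.01 ± 0.15 higher with TMM and was not called with the count total.

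Lower in the ovary under both scalings were 9 of 14 COPII members (64.3%), against 45.4% of all rows and 36.2% of all members. The 18 of 35 stress sensors and factors (51.4%) lay near the share of all rows. The 21 of 55 degradation members (38.2%) lay below it. atf4a had 6.44, 4.24 and 5.73 FPKM in ovaries, against 140, 126 and 148 FPKM in testes (-3.85 ± 0.19, edgeR adjusted p = 9.01e-09). The sensors atf6 and eif2ak3 fell by 1.44 ± 0.15 and 1.41 ± 0.20. The folding sensor uggt1 had 5.68, 6.76 and 6.72 FPKM in ovaries, against 92.4, 84.8 and 91.8 FPKM in testes (-3.02 ± 0.14), and sec24d 0.50, 0.83 and 0.35 FPKM in ovaries, against 18.3, 17.6 and 20.4 FPKM in testes (-4.29 ± 0.27). ube2j1, an ER-bound conjugating enzyme, XLOC_016917, annotated as E2 G1-like, the mannosidases man1b1b and man1c1 and the adaptor traf2b stood under 0.7 FPKM in every ovary and at 12 FPKM or more on average in testes. Rows of the same annotation went opposite ways: man1b1a was 1.84 higher and man1b1b 4.72 lower on the log2 scale, and ube2g1a and ube2g1b were 1.94 and 2.04 higher while XLOC_016917 was 5.97 lower.

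For comparison, 32 other ER genes outside the pathway annotation, such as signal peptidase, signal recognition particle, KDEL receptor and manf genes, were counted with the same tests. In the pituitary against brain 30 were higher and 1 lower, 96.9% called against 75.6% of all rows, with a median of 1.58. In the liver against brain 28 were higher and 1 lower with TMM, 90.6% called against 80.4% of all rows. In the gonads 21 were higher in the ovary and 7 lower with TMM, 87.5% called, near the 84.2% of all rows. This list was not counted with the count total. Between the sexes 2 were called in the brain (6.25%, against 20.3% of all rows) and 6 in the pituitary (18.8%, against 26.7%). In the liver edgeR called 0 of 31, against 6.82% of all rows, while 3 had an unadjusted p under 0.05 and DESeq2 called 1. Most of the 13 pathway rows left out were heat shock rows. Of 11 of them tested in female brains 2 were higher and 5 lower (63.6% called). Of 9 tested in female pituitaries 2 were higher and 6 lower (88.9% called).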

How the data were processed

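RNA of 24 pooled samples was sequenced on an Illumina HiSeq instrument, per the labels' protocols. The authors deposited 1 table with FPKM and estimated counts per gene and library. Bowtie2 and TopHat2 2.0.3.12 are named in the submitters' processing notes; the genome build, annotation and quantifier are not given in the sources used here. Of the estimated counts, 97.1% to 98.4% per library were whole, and the others were rounded.

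Members and gene lists were chosen with earlier results of these data known. Symbols and the Z or W placement came from the RefSeq table of assembly Cse_v1.0, which held 19502 of 22773 identifiers. Rows at 1 FPKM or more in at least 3 libraries of a comparison were fitted with edgeR 4.0.16 (R 4.3.3, TMM scaling, robust quasi-likelihood test), and p-values were adjusted by Benjamini-Hochberg over all rows tested, with a call at an adjusted p under 0.05. Every log2 difference is the first named group minus the second; organ differences are the mean of those in females and males, and SE is the size of the difference over the root of F. The sex by organ term was tested over brain, pituitary and liver. Sums of Z and W rows were compared by exact two-sided permutation tests. Alternatives used DESeq2 1.42.0, limma 3.58.1 on log2(FPKM + 1) or log2(FPKM + 0.1), other scalings and filters, a replicate block and omitted libraries. Levels were also given as FPKM divided by the TMM factors of all 24 libraries, an alternative chosen after seeing the data. The fits were tested on simulated data. Members named were the 6 in each direction with the largest called differences among those at 5 FPKM or more with groups that did not overlap, fixed key genes of each role, and the rows next to the level threshold; others were chosen after their values were seen.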

Additional observations from a re-analysis of the deposited data

Results flagged for a closer look

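The sex difference itself differed among brain, pituitary and liver for 8 members (edgeR adjusted p of the sex by organ term). For nploc4 that p was 0.0005857, for LOC103387544 0.009519, for ern2 0.01485, for sel1l 0.01779, for p4hb 0.02027, for man1c1 0.02603, for plaa 0.03846 and for LOC103392725 0.04919. plaa, a cofactor of VCP, had 2.20, 3.65 and 4.01 FPKM in female and 1.14, 2.30 and 1.63 FPKM in male livers, which overlapped, and LOC103392725 differed by -1.23 in the pituitary, -0.38 in the brain and -0.15 in the liver. The calls of plaa and LOC103392725 were lost in 16 and 18 of the alternatives. LOC103387544 fell under the filter in brain and liver, so only its pituitary difference was tested by itself.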

How the results depend on the processing

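The counts of members called in the brain between the sexes (30) became 10 with all 24 libraries in 1 fit, and those in the pituitary (38) became 22 without the libraries with oocyte transcripts. The liver count (7) was 11 with DESeq2, 4 and 3 with limma on log2(FPKM + 1) and log2(FPKM + 0.1), 4 with a filter at 5 FPKM, 24 with all 24 libraries, 12 with the replicate block and 4 without the library with oocyte transcripts. The count for the sex by organ term (8) was 25 with DESeq2 and 16 with limma on log2(FPKM + 1). Shares of all rows called are not given here for these counts or for those with a library left out. Leaving out 1 library at a time gave 14 to 32 in the brain, 18 to 42 in the pituitary, 0 to 8 in the liver, 112 to 142 in the gonads, 150 to 153 for liver against brain, 149 to 153 for pituitary against brain, 120 to 128 for liver against pituitary and 5 to 16 for the sex by organ term. The counts past 1.5 times their value were 17, 14 and 18 without female brain library 1, 2 or 3; 20, 18 and 22 without female pituitary library 1, 2 or 3 and 25 without male pituitary library 1; 4, 1 and 0 without female liver library 1, 2 or 3 and 4 and 3 without male liver library 1 or 3; and, for the sex by organ term, 5 without female brain library 2 and 16 without female liver library 1 or male liver library 2.

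With the count total, limma at 1 and limma at 0.1, canx in liver against brain changed sign to -1.76, -1.75 and -1.77. In liver against pituitary p4hb changed to -0.54, -0.54 and -0.54, and hspa5 to -1.54, -1.81 and -1.82. These 3 alternatives all leave out TMM, so they are not separate checks. Over all 24 libraries the TMM factors were 0.33 to 0.396 in livers, 1.34 to 1.39 in pituitaries and 1.47 to 1.67 in brains. Whether anything else added to the changes was not tested. With FPKM divided by TMM factors, an alternative chosen after seeing the data, the members highest in the pituitary became 32 in place of 67, and the ratio of female to male sums of Z and W rows changed side of 1 for vcp in the gonads (1.07), and for ube2d4 in the liver (0.97) and gonads (1.76). The labels do not say whether a replicate number marks the same fish. No comparison had all of its same-numbered pairs over 0.1. The 12 pairs between the sexes ran from -0.174 to 0.225. All 18 pairs between organs of a sex were positive (0.00968 to 0.254), the 3 of female pituitary and female brain were 0.208, 0.124 and 0.187, and there and between liver and brain of either sex all 6 libraries correlated best with their own number, a hint from the data and not the design. With the replicate block the counts were 27 in the brain, 27 in the pituitary, 12 in the liver, 138 in the gonads, 150 for liver against brain, 153 for pituitary against brain, 129 for liver against pituitary and 8 for the sex by organ term.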
